A study of Rattus norvegicus with 2 samples.

Results

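A-type potassium current is a fast, transient outward current that opens as a neuron depolarizes toward threshold and then inactivates. It is known in many neurons, sympathetic neurons among them, for delaying the first action potential and widening the gap between spikes. Its channel is usually a complex in which pore-forming Kv4 subunits are joined by KChIPs, cytosolic calcium-binding proteins that bring Kv4 to the membrane and reshape inactivation, and by DPP6 or DPP10, membrane proteins related to a peptidase but without its activity that speed the gating of Kv4. Kv1.4 and Kv3.4 also give A-type currents, through an inactivation particle at their own N terminus.

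The 10 genes described here were chosen by symbol from the 25399 genes listed for the sympathetic neuron cluster of dissociated rat stellate ganglia. They are the pore-forming genes Kcnd1, Kcnd3, Kcna4 and Kcnc4, the KChIP genes Kcnip1, Kcnip2, Kcnip3 and Kcnip4, and the DPP-like genes Dpp6 and Dpp10. Kcnd2, another Kv4 gene, is not among the listed genes, so no level of it could be given. Levels came from 1 droplet library of normotensive Wistar rats and 1 droplet library of prehypertensive SHRs (spontaneously hypertensive rats), with males of 5 to 6 weeks of age in both, and the number of animals behind each library is not given in the sources used here. A level is the mean over neurons of the counts per 10000 counts of that neuron, and differences are SHR minus Wistar. Each count is a molecular tag read at the 3′ end of a transcript, so levels of different genes were compared without division by length. With 1 library for each strain no difference between the strains has a replicate check or a test.

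The number of neurons and their depth could be read from the lowest levels. A transcript counted once in a single neuron has a level set by the depth of that neuron and by the number of neurons, and many such genes share exactly the same level. Taking 315 neurons in Wistar, 60 of the 61 shared levels precise enough to be judged gave a whole number of counts per neuron, and taking 110 neurons in SHR, 87 of 90 did. In SHR 110 depths were recovered, as many as there were neurons, with a median of 102781 counts and a range of 4882 to 232544. A few depths listed for simulated libraries were false, so some of the recovered depths may be false too. In Wistar 253 of 315 depths were recovered, with a median of 89295 counts and a range of 4010 to 227128. The recovered depths fell in 2 separate sets, with none of them between 22206 and 39326 counts, and the shallow set held 53 of the recovered Wistar neurons (20.9%) and 7 SHR neurons (6.36%). The 62 Wistar neurons without a recovered depth were counted at the depth of the shallowest recovered neuron in the counting intervals given here, which widens the Wistar intervals. The depths are high for a droplet library and were not checked against a table of counts per cell, and every counting interval, count and limit given here rests on them.

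**Figure D1:**
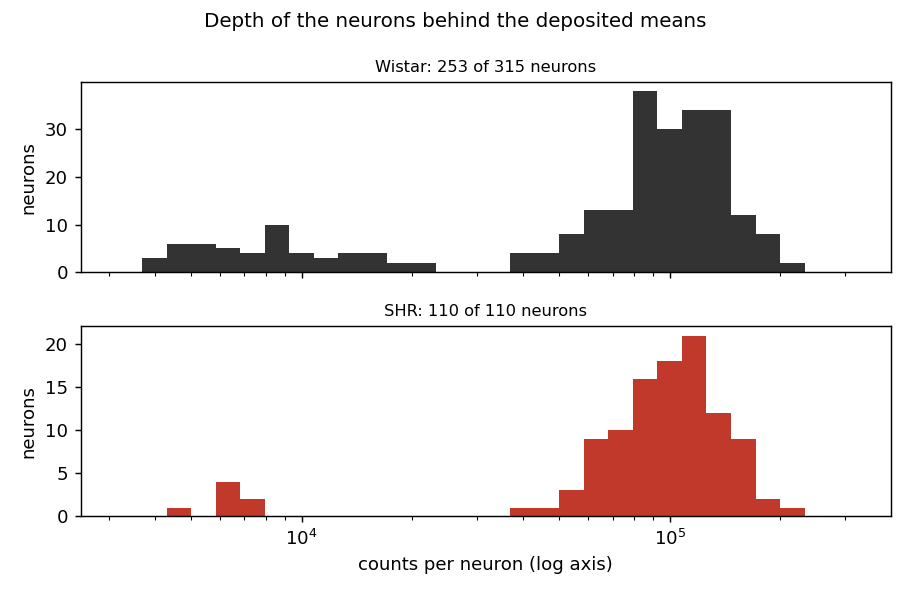
Histograms of the counts per neuron (x axis, log scale) recovered from the deposited means of the Wistar and SHR sympathetic neurons, with the number of neurons on the y axis. The medians are 89295 counts in Wistar and 102781 in SHR, and a separate shallow set holds 53 of the 253 recovered Wistar neurons and 7 of the 110 SHR neurons.

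Markers of sympathetic neurons and of other cells were read in the cluster. The authors list Slc6a2, Th and Dbh among their own markers of sympathetic neurons. Their levels are therefore no independent check of the identity of the cluster. Slc6a2, the noradrenaline transporter gene, had a mean of 15.9 per 10000 in Wistar against 15.2 in SHR, and Th, encoding tyrosine hydroxylase, had 10.2 and 10.1. Dbh, the gene of the enzyme that makes noradrenaline from dopamine, had 10.2 and 6.36. These 3 genes were lower in SHR, but the 12 sympathetic markers differed in both directions. Ddc, at 7.06 in Wistar and 3.44 in SHR, and Slc18a2, at 5.36 and 3.63, were also lower in SHR. The 12 markers summed to 156.5 per 10000 in Wistar and 170.1 in SHR. This sum is led by Prph, at 57.95 and 67.62, Uchl1, at 24.99 and 30.84, and Snap25, at 17.44 and 23.71. All of these were higher in SHR, so the sum does not give the direction of the other markers. Transcripts of other cells were present at low levels, and the marker sums of all these other cells except the endothelial one were higher in the Wistar library. The 9 glial markers with a level summed to 3.24 per 10000 in Wistar against 1.28 in SHR, the 6 fibroblast markers to 1.84 and 0.353, and the 7 immune markers to 1.10 and 0.396. The 6 endothelial markers summed to 0.0872 and 0.0937, the 6 smooth muscle markers to 0.120 and 0.0714, and the 3 erythrocyte markers to 0.0669 and 0.0499. No glial, fibroblast or endothelial marker was at 0 in either library.

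A pair of auxiliary subunit genes, Kcnip4 and Dpp6, dominated the A-type genes of the sympathetic neurons, and Kcnd1 was the leading pore-forming gene. Kcnip4 and Dpp6 together held 90.0% of the summed level of the 10 genes in Wistar and 89.5% in SHR. The 10 genes summed to 3.49 per 10000 in Wistar against 3.07 in SHR. Only these 3 genes averaged at least 0.1 per 10000 over the 2 libraries. The other 7 were at 0.0361 per 10000 or below in both libraries, and of these Kcnip3 was listed at 0 in both.

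**Figure D2:**
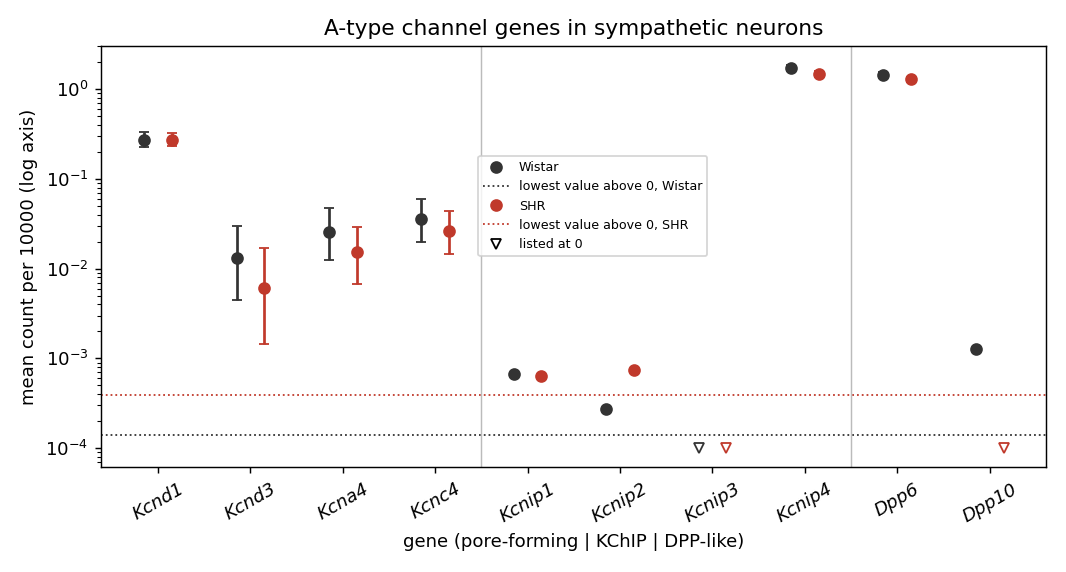
Mean count per 10000 (y axis, log scale) of each of the 10 genes in the Wistar and SHR neurons, with 95% counting intervals where the mean is at least 0.005, triangles for genes listed at 0, drawn at the foot of the axis, and dotted lines at the lowest level above 0 in each library. Kcnip4 and Dpp6 lie above 1 in both libraries, Kcnd1 near 0.27, and Kcnip1, Kcnip2 and Dpp10 within 10 times the lowest level of their library.

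Among the pore-forming genes, Kcnd1 (Kv4.1) was nearly level between the strains. Its mean was 0.273 per 10000 in Wistar against 0.274 in SHR, a percent change of 0.478% and a difference of 0.0015 on the log2(1 + mean) scale. The 95% counting interval, which covers counting error alone and assumes the same rate in every neuron, was 0.224 to 0.329 in Wistar and 0.232 to 0.321 in SHR. A difference of Kcnd1 between these libraries was therefore not detectable at this depth, and the intervals leave room for one in either direction. Kcnd1 ranked 5236 among all genes in Wistar and 4504 in SHR. It supplied 78.4% of the summed level of the pore-forming genes in Wistar and 85.2% in SHR.

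The other pore-forming genes had low means, each lower in SHR with overlapping intervals. On the log2(1 + mean) scale this direction turned when the median difference of the genes averaging at least 0.1 per 10000 was set to 0. That median was -0.052, whereas genes averaging from 0.01 to under 0.1, the range of Kcnc4 and Kcna4, had a median of -0.018. The shift is thus large for genes of so low a level, and the turn does not tell their direction. In that range 73.7% of all genes were lower in SHR. Kcnd3 averaged 0.00962 per 10000, under that range, and no share or median was taken for its own range. Kcnc4, which encodes the fast-inactivating Kv3.4, had a mean of 0.0361 per 10000 in Wistar (95% counting interval 0.0200 to 0.0599) and 0.0261 in SHR (0.0145 to 0.0434). Kcna4, which encodes Kv1.4, had 0.0258 in Wistar (0.0126 to 0.0468) and 0.0152 in SHR (0.00675 to 0.0294). Kcnd3, which encodes Kv4.3, had 0.0131 in Wistar (0.00444 to 0.0300) and 0.00611 in SHR (0.00143 to 0.0168). The percent changes were -27.6% for Kcnc4, -41.0% for Kcna4 and -53.5% for Kcnd3. Divided by the average worth of 1 count, the SHR means correspond to about 14.5, 8.46 and 3.40 counts for Kcnc4, Kcna4 and Kcnd3. Shallow neurons raise that worth, so these are not the numbers of counts seen over all neurons. No difference of these 3 genes was therefore detectable at this depth. Within each library the intervals of Kcnc4, Kcna4 and Kcnd3 also overlapped, so their order was not resolved, whereas all 3 lay below the interval of Kcnd1. The 4 pore-forming genes summed to 0.348 per 10000 in Wistar (0.292 to 0.410) and 0.321 in SHR (0.276 to 0.372), a percent change of -7.54%.

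Kcnip4 accounted for nearly all of the summed KChIP level. Its protein, KChIP4, exists in splice forms, of which some slow the inactivation of Kv4 strongly, and the deposited levels do not separate splice forms. The mean of Kcnip4 was 1.72 per 10000 in Wistar, rank 951 of all genes, and 1.47 in SHR, rank 1104. The counting intervals of the libraries, 1.59 to 1.85 in Wistar and 1.37 to 1.58 in SHR, did not overlap. The percent change was -14.1% and the log2(1 + mean) difference -0.135. Kcnip4 made up 99.9% of the summed KChIP level in both libraries.

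The remaining KChIP genes were at the limit of detection. Kcnip2, the KChIP gene best known from ventricular heart muscle, had a mean of 0.000276 per 10000 in Wistar against 0.000738 in SHR. Each of these levels equals 1 count in 1 neuron, in a Wistar neuron of 115121 counts and in an SHR neuron of 123172 counts. Kcnip1 had 0.000635 per 10000 in SHR, which equals 1 count in a neuron of 143226 counts, a level shared exactly with 9 other genes. In Wistar Kcnip1 was at 0.000675 per 10000, which is 4.83 times the lowest level of the library and so at most 4 counts among 315 neurons. Kcnip3, whose product is also known as calsenilin or DREAM and has been described as a transcriptional repressor, was listed at 0 in both libraries. Counts of 0 allow a share of up to 0.952% of neurons with a count in Wistar and up to 2.73% in SHR, and a level of up to 0.00744 and 0.00539 per 10000 when 3 counts are taken as the limit for each library. The levels of Kcnip1 and Kcnip2 lay under these limits in both libraries, so no ratio between the strains is given for them.

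Dpp6 showed the same dominance among the DPP-like genes. Its mean was 1.43 per 10000 in Wistar (95% counting interval 1.31 to 1.55), rank 1175, and 1.28 in SHR (1.19 to 1.38), rank 1257. The percent change was -10.3% and the log2(1 + mean) difference -0.090, and the intervals overlapped. Dpp10 was at 0.00127 per 10000 in Wistar, at most 9 counts among all neurons, and was listed at 0 in SHR. Both lie under the limits that 0 counts allow, and no ratio is given.

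**Figure D3:**
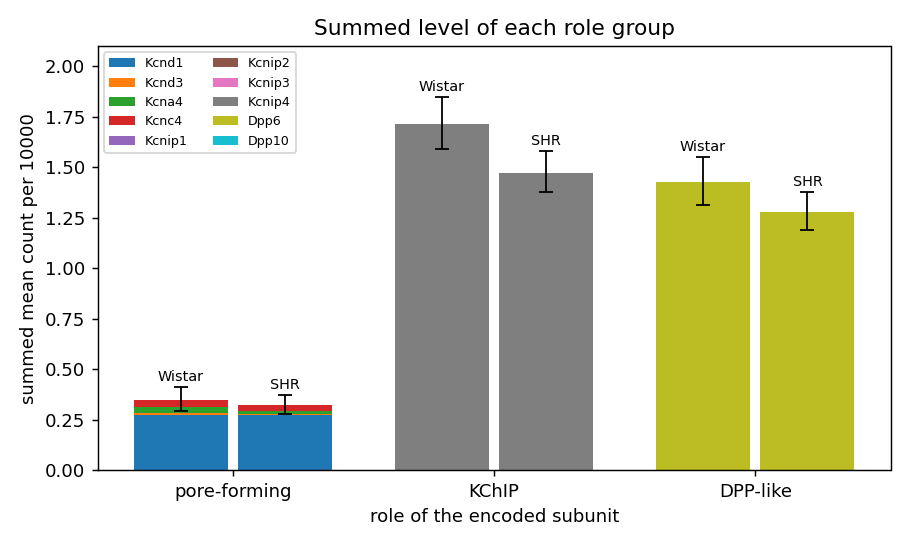
Stacked bars of the summed mean count per 10000 (y axis) of the pore-forming, KChIP and DPP-like genes in the Wistar and SHR neurons, with 95% counting intervals of each sum. Kcnd1, Kcnip4 and Dpp6 fill nearly the whole of their bars, and the sums change from 0.348 to 0.321, from 1.72 to 1.47 and from 1.43 to 1.28.

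The proportions between the roles were close in the 2 libraries. The ratio of the summed KChIP level to that of the 4 pore-forming genes was 4.94 in Wistar and 4.59 in SHR. The corresponding ratio of the DPP-like to the pore-forming level was 4.11 in Wistar and 3.98 in SHR. How completely the 3′ end of each gene was captured was not checked, so these are ratios of counted tags and not of transcript numbers. Kcnd2 is not in these sums, so the ratios describe the listed genes and not the whole Kv4 complex. The ratio of Kcnip4 to Dpp6 was 1.2 in Wistar, where their counting intervals did not overlap, and 1.15 in SHR, where they did.

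Set beside the whole transcriptome, the strain differences of the A-type genes lay near those of all genes of their level. Of the 3 genes with an average of at least 0.1 per 10000, Kcnip4 and Dpp6 were lower in SHR, as were 65.6% of the 7621 genes in that range. None of the 3 was lower by at least 1.5-fold, a size that 26.5% of the same genes reached. For 34.5% of these genes the SHR counting interval lay wholly below the Wistar interval, and Kcnip4 was among them. The median percent change was -10.3% over the 3 genes and -13.7% over all 7621, and the median log2(1 + mean) difference was -0.090 over the 3 genes and -0.052 over all. A larger percent fall than that of Kcnip4 was found in 49.4% of the 7621 genes, and a larger one than that of Dpp6 in 53.9%. Of the 4011 genes averaging from 0.01 to under 0.1 per 10000, 73.7% were lower in SHR, and so, with no shift of the median, were the members Kcnc4 and Kcna4. Kcna4 was lower by at least 1.5-fold, at 1.69-fold, as were 49.3% of these genes. With no minimum on the level, 9 of the 10 genes were above 0 in at least 1 library. Of these 9, 7 were lower in SHR and 3 lower by at least 1.5-fold. Among all 16389 genes above 0 in either library the shares were 68.1% and 41.8%. Kcnip1 is counted in the 7, and Dpp10 in the 7 and the 3, although their levels lie under the limits that 0 counts allow. Shares near the background are no result about the A-type genes themselves. Glial, fibroblast and immune marker sums and the share of shallow neurons were higher in the Wistar library, and their part in these differences was not tested.

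**Figure D4:**
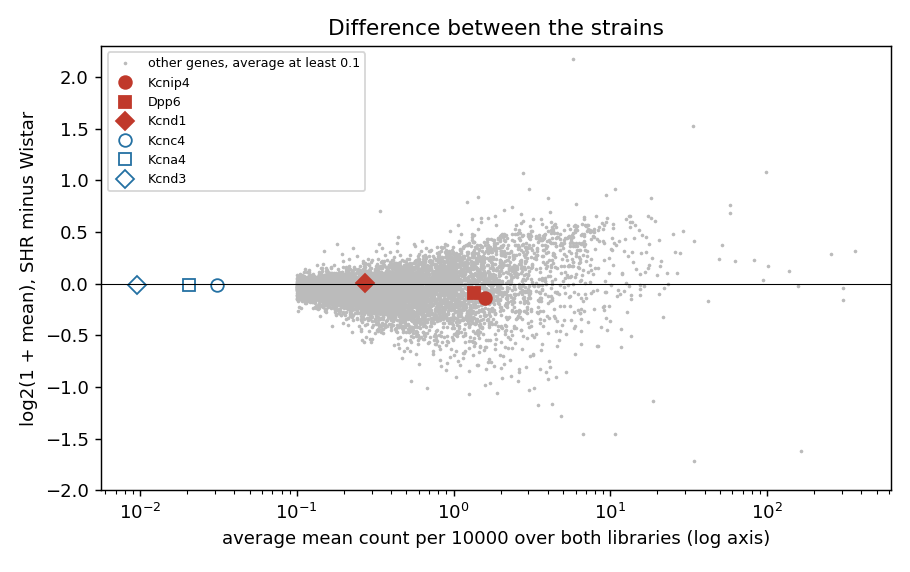
Difference of log2(1 + mean), SHR minus Wistar (y axis), against the average mean count per 10000 over both libraries (x axis, log scale), with grey points for the genes averaging at least 0.1 and filled or open symbols for 6 of the A-type genes. Kcnip4 and Dpp6 lie within the cloud of genes of their level at -0.135 and -0.090, and Kcnd1 lies at 0.0015.

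Gene length moved with the strain difference over the transcriptome, and Kcnip4 and Dpp6 are among the longest genes. Genes past the minimum of 0.1 per 10000 were ranked by length and split into 10 equal groups. In the group of the longest genes, which holds Kcnip4 and Dpp6, 85.6% of genes were lower in SHR and the median percent change was -31.7%. A larger percent fall than that of Kcnip4 was found in 70.5% of this group, and a larger one than that of Dpp6 in 74.9%. Kcnd1 is in the fourth group from the shortest, whose median percent change was -10.9%. The part of gene length in the differences of the A-type genes was not tested.

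**Figure D5:**
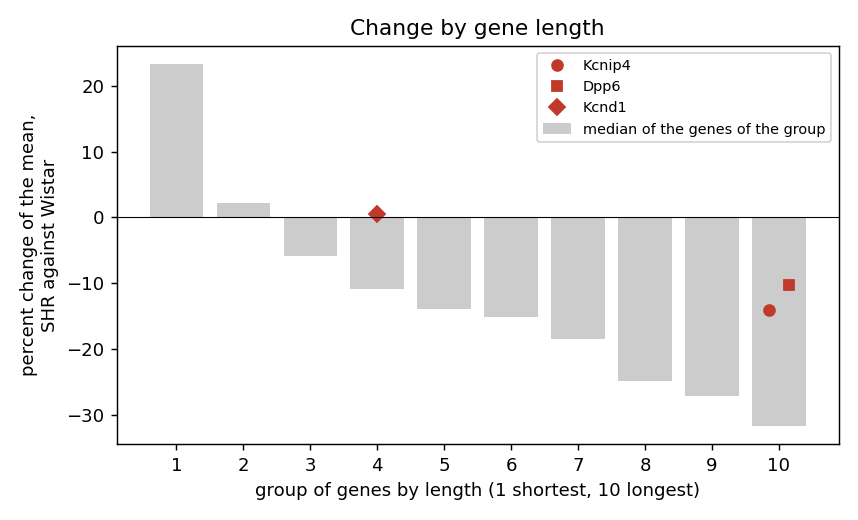
Median percent change of the mean, SHR against Wistar (y axis), of the genes averaging at least 0.1 per 10000 in 10 groups by gene length (x axis, shortest to longest), with Kcnip4, Dpp6 and Kcnd1 as symbols at their own group. The medians run from 23.3% in the shortest to -31.7% in the longest, and all 3 symbols lie above the median of their group.

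Partners and relatives of the A-type subunits, from lists chosen by function or name, were set beside all genes of the same level. Of 32 such genes 31 were listed and 14 averaged at least 0.1 per 10000. Of these 14, 8 were lower and 6 higher in SHR, or 7 and 7 with the median difference of all genes in that range set to 0. Of all 7621 genes in that range 65.6% were lower and 34.4% higher. Their median log2(1 + mean) difference was -0.053. The SHR counting interval lay wholly below that of Wistar in 4 of the 14 and wholly above it in 3, against 34.5% and 14.6% of all genes in the range, so with 14 genes nothing particular to the partners is read from these counts.

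Of 7 other Kv1 and Kv3 genes, 2 averaged at least 0.1 per 10000, both lower in SHR, as were 65.6% of all genes of that level. Kcna3 (Kv1.3) had 0.145 per 10000 in Wistar and 0.0646 in SHR, with separate intervals, as 34.5% of all genes of that level had in this direction. Kcna6 (Kv1.6) had 0.276 and 0.211, with overlapping intervals. Kcnab1, encoding a Kv beta subunit that confers fast inactivation on Kv1 channels, had 0.537 in Wistar and 0.639 in SHR, with overlapping intervals. None of the 5 Kcne genes, which encode small membrane subunits, averaged 0.1 per 10000. Of the 5 partner genes averaging from 0.01 to under 0.1, 2 had an SHR interval wholly below that of Wistar, as did 19.3% of all genes in that range. These were Kcna2 (Kv1.2), at 0.0490 per 10000 in Wistar against 0.0043 in SHR, and Kcne3, at 0.0415 and 0.00649, both named after their values were seen.

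Of 6 calcium sensor genes related to the KChIPs, 4 averaged at least 0.1 per 10000, with 3 higher and 1 lower in SHR, where 34.4% of all genes of that level were higher. Hpcal1 had a mean of 0.196 per 10000 in Wistar against 0.345 in SHR, and Vsnl1, encoding visinin-like protein, 0.338 and 0.483, both with separate intervals, as 14.6% of all genes of that level had in this direction. Hpcal4 had 0.752 and 0.903 and Ncs1, encoding neuronal calcium sensor, 2.57 and 2.32, both with overlapping intervals. The level of Ncs1 was thus above that of Kcnip4 in each library.

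Genes of active dipeptidyl peptidases were present beside Dpp6. Dpp8 and Dpp9 belong to its family, whereas Dpp3, a metallopeptidase gene, shares only the name. Dpp7, encoding a lysosomal dipeptidyl peptidase, had 1.31 per 10000 in Wistar against 0.719 in SHR, a percent change of -45.0% with separate intervals. Of all genes averaging at least 0.1 per 10000, 34.5% had separate intervals in this direction. Dpp3 had 1.28 and 1.22, Dpp8 0.171 and 0.115, and Dpp9 0.955 and 0.985, all with overlapping intervals.

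Of the scaffold and transport partners of Kv4 channels, 3 averaged at least 0.1 per 10000, all with separate intervals, as 49.1% of all genes of that level had in either direction. Flna, the gene of the actin cross-linker filamin A, had 0.554 per 10000 in Wistar against 0.147 in SHR, a percent change of -73.4%. Dlg1, encoding the scaffold SAP97, had 0.230 and 0.115. Dlg4, encoding the scaffold PSD-95, was higher in SHR, at 0.970 against 0.738.

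The genes whose pair of levels lay nearest to that of Kcnip4, by the Euclidean distance of the 2 natural log values among 7620 genes, were Syt17, at 1.71 per 10000 in Wistar against 1.47 in SHR, Gsn, at 1.70 and 1.45, and Pum2, at 1.74 and 1.52. Nearest to Dpp6 were Camlg, at 1.41 and 1.32, Rogdi, at 1.40 and 1.249, and Sppl3, at 1.38 and 1.27. Likeness over 2 libraries rests on 2 values for each gene.

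Promoter sequence could be set beside the levels for 8 of the 10 genes, from RefSeq on the build GRCr8, over 300 bases from 250 before to 50 after an annotated start. Kcnd1 and Kcnip4 had no entry. The dinucleotide CG, whose density marks the promoters of many broadly active genes, was counted in each. Dpp6, the abundant DPP-like gene, holds 18 CG at chr4:8995220-8995519 (minus strand), a number that 27.5% of all 33469 promoters reach. Kcnd3, near the limit of detection, holds 48 at chr2:195626066-195626365 (plus strand), which 1.04% of promoters reach. These 2 promoters are shown 5′ to 3′ with each CG in capitals, as the abundant gene and the low gene with the most CG.

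Dpp6: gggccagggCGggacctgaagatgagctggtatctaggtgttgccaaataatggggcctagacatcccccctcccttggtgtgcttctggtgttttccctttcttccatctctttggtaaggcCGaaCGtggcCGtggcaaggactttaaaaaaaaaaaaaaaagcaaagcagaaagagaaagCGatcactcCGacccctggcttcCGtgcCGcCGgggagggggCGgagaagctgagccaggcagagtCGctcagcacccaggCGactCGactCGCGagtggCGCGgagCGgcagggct

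Kcnd3: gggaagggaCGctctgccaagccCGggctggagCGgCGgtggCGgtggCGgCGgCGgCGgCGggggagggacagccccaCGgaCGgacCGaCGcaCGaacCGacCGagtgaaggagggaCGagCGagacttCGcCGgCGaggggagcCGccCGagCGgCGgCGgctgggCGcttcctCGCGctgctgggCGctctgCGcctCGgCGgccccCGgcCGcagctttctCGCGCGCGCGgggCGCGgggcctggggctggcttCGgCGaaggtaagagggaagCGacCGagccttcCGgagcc

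CG number did not order the measured genes by level. Kcna4, with 1 CG, had a higher mean than Kcnd3 in both libraries, with overlapping intervals. Kcnc4 holds 19, Kcnip2 13 and Kcnip3 8, and the pairs of starts listed for Kcnip1 and Dpp10 hold 8 and 15 and 23 and 5. The motif TATAAA, searched on both strands, was in none of these promoters and in 14.2% of all promoters. Counts from the 3′ end do not tell which start was used.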

How the data were processed

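Stellate ganglia of Wistar rats and SHRs were dissociated with collagenase and trypsin and run on 10x Genomics single-cell 3′ v3 chemistry. The submitters' processing notes name Cell Ranger 3.0.2, Seurat 3, DESeq2 and the build Rnor_6.0. The role of DESeq2 is not given, and the authors' paper names MAST for its comparison of the strains. Filters on cells, doublet treatment and annotation release are not given in the sources used here. Values were deposited by the authors as cluster averages on a natural log scale (counts scaled to 10000 per cell, averaged over cells, 1 added before the log), and those of the sympathetic neurons were converted back here. A second deposited table, with the authors' fold changes, p-values and shares of cells, was not used. Of the listed genes, 4 lines with 2 repeated names were left out.

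The number of neurons was taken as the largest between 30 and 600 for which at least 90% of the levels shared by 3 or more genes gave whole depths (within rounding plus 0.001), where rounding error was under 0.1. The next best number that is neither a multiple nor a divisor gave 18 of 31 in Wistar and 20 of 41 in SHR. Depths came from levels shared by 2 or more genes, without multiples. In simulated libraries of 300 and 120 cells both numbers were recovered. For the 300 cells 161 depths were listed, 159 of them true, and for the 120 cells 105, 101 of them true. All simulated cells shared 1 expression profile and few were shallow, unlike the data. Counting intervals (95%) are exact Poisson intervals on the mean divided by the average worth of 1 count, used as an approximation. They cover counting error only and not differences between neurons. Overlap of 2 such intervals is a stricter bar than a direct comparison of the 2 means, which was not made. Overlap thus does not show that a counting difference is absent. This step was added after the data were examined.

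The genes and lists were chosen with earlier results of these data known. All 10 genes are named, partner genes are named from an average of 0.1 per 10000 (2 genes of the partner lists are not reported here and are in no count of them), and the 3 nearest genes are named for the 2 members of highest average. Other named genes (Kcna2, Kcne3 and the markers) were picked outside that minimum. Lengths are ranks of GRCr8 spans, matched by symbol for 95.7% of the genes past the minimum. Python 3.11.15, NumPy 2.4.6, pandas 2.3.3, SciPy 1.17.1 and matplotlib 3.10.9 were used.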

Additional observations from a re-analysis of the deposited data

How the results depend on the processing

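With 1 library for each strain no replicate could be left out, and depth limits the 7 genes under 0.1 per 10000 most. No paired analysis was possible because neither strain has a second library. Of the 3 genes past the minimum, Kcnip4 and Dpp6 were lower and Kcnd1 higher in SHR under every pseudocount, scaling and centring tried. A pseudocount added to both means cannot change a direction, and the centring was done on the log2(1 + mean) scale only. The percent change was -14.1% for Kcnip4, -10.3% for Dpp6 and 0.478% for Kcnd1, beside a median of -13.7% over the genes past the minimum. Dpp6 thus fell less than that median. With the median difference of all genes set to 0, which adds 0.052 to each gene, the log2 differences became 0.042 for Kcnd3, 0.037 for Kcna4, 0.038 for Kcnc4, 0.052 for Kcnip1 and 0.050 for Dpp10, all negative before. With no minimum, 7 of the 9 genes above 0 in a library were lower in SHR and 3 by at least 1.5-fold. Past the minimum the counts were 2 and 0 of 3, since fewer genes then enter. Of all 16389 genes above 0 in a library 68.1% were lower and 41.8% lower by at least 1.5-fold. Without its leading gene the summed level changed by -36.7% for the pore-forming genes, by 44.4% for the KChIP genes and by -100% for the DPP-like genes, since only genes of few counts then remain. Leaving mitochondrial and ribosomal protein genes or other cells' markers out of the total changed no direction among the 9 genes above 0. With the worth of 1 count averaged over neurons of recovered depth alone, an alternative chosen after the data were examined, the intervals of 1 gene, Kcnip4, were again apart.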
